A study of Homo sapiens with 6 samples.

Results

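The cytosolic ribosomal protein (RP) genes are the genes whose products build the ribosomes of the cytoplasm. They were taken by symbol: RPL or RPS followed by a number (with the letters A, X or L of named copies), plus RPLP0, RPLP1, RPLP2, RPSA and FAU, and without the RPS6K kinases. The rule found 84 genes among 28307 gene symbols, 52 of the large and 32 of the small subunit. The study measured polyadenylated RNA of SW480, an established line from a human colon adenocarcinoma. In the Clover group (3 libraries) the cells carried pLENTI CMV Clover, a fluorescent control protein, and in the Z18trunc group (3 libraries) pLENTI CMV Z18trunc, a shortened ZC3H18, which takes part in nuclear RNA surveillance. All 6 lines were made by lentiviral transduction, kept under puromycin and also held their own ZC3H18 gene, so Z18trunc acted beside it from a viral promoter. The comparison asks how the level of RP mRNA differs between cells with the truncated factor and cells with Clover.

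Each ribosome holds 1 copy of most RPs, so cells keep the supply of these proteins even by controlling both RNA and translation. Most RP mRNAs are short, abundant and begin with a C followed by a run of C and T, the TOP tract (terminal oligopyrimidine). The RNA-binding protein LARP1, under the kinase MTOR, acts on mRNAs that start this way. An RP made in excess is degraded, and unassembled RPL5 and RPL11 can bind MDM2.

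Start sites from RefSeq (GRCh38.p14) were available for 67 of the 84 genes. At 48 of them (71.6%) a RefSeq start base was C and was followed by at least 4 further C or T, against 4.98% of 27238 promoter symbols. The sequences shown here run from 10 bases before to 12 bases from the start and were chosen to set genes with the tract beside a gene copy and the 2 RP genes with the largest differences, which have none. Capitals mark the run that begins at the start base.
RPL7A: attccctttcCTTTCTCTCTCC
RPS9: gcttccgcgcCTCTTTCTCagt
RPS21: ctagctgcttCCTTTCTCTCTC
RPL26: gcgtgtagttCTCTTCCCTTTT
RPL26L1 (a): tccaggggtcggcgaacgaaac
RPL26L1 (b): ggcggcggccacaaacccgcag
RPL7L1: gtgcggcgccgtagctaggagc
RPL15 (a): tggggcctgctggaggagcttc
RPL15 (b): gaaagagggtggctgaggtggg
RPL15 (c): aaggcattgtgggagtacagct
RPL7A lies at chr9:133348208-133348229 (plus strand), RPS9 at chr19:54200848-54200869 (plus strand), RPS21 at chr20:62387093-62387114 (plus strand) and RPL26 at chr17:8383182-8383203 (minus strand). RPL26L1 has starts at chr5:172958719-172958740 and chr5:172958870-172958891 (plus strand), and RPL7L1 has 1 at chr6:42879606-42879627 (plus strand). The RPL15 starts are at chr3:23916535-23916556, chr3:23917088-23917109 and chr3:23917122-23917143 (plus strand).

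In windows of 250 bases before and 50 after the start, read on both strands, CCGGAAG stood in 34.3% of RP promoters and 12.1% of all promoters. AAGATGGCG stood in 8.96% against 2.12%, and TATAAA in 10.4% against 14.0%. A match describes the letters and not a factor's binding. Among the genes with no entry were RPL23, RPL23A, RPL30, RPL37, RPL39L, RPL3L, RPL5, RPL7, RPL8, RPS15A, RPS2 and RPS20.

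Libraries held 18226033 to 22463310 aligned fragments. ZC3H18 was 58.4, 51.3 and 61.8 TPM (transcripts per 1000000, a level per length) in Clover and 752, 739 and 798 TPM in Z18trunc, a log2 difference of 3.72 (SE 0.09, limma adjusted p = 3.21e-05). Of 10 colon epithelial markers, 8 had a mean of at least 1 TPM, while CDX1 and LGR5 were listed at 0. The 10 markers of other cell types summed to 1.85 to 2.15 TPM in Clover and 1.7 to 2.15 TPM in Z18trunc, and COL1A1 alone reached a mean of 1 TPM.

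RP mRNA made up a slightly smaller share of the transcripts in Z18trunc than in Clover. The 84 genes summed to 168222, 177724 and 168643 TPM in Clover and to 165759, 158682 and 161086 TPM in Z18trunc. That is 16.8%, 17.8% and 16.9% against 16.6%, 15.9% and 16.1% of all TPM. All 3 Z18trunc libraries lay below all 3 Clover libraries, although the nearest libraries of the groups were close. The means were 171530 ± 5369 and 161842 ± 3598 TPM (SD, n = 3 each), a change of -5.65%. Since TPM shares add up to the same total in each library, a smaller share and a smaller amount per cell cannot be told apart, nor can fewer cells of a kind and less RNA per cell.

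Both subunits were summed on their own. Large subunit genes summed to 95436 ± 2854 TPM for Clover and 90354 ± 2204 TPM for Z18trunc (SD, n = 3 each), a change of -5.33%. Small subunit genes summed to 76093 ± 2555 and 71488 ± 1438 TPM (SD, n = 3 each), a change of -6.05%. The groups did not overlap for either sum. The ratio of large to small was 1.27, 1.25 and 1.25 in Clover and 1.27, 1.25 and 1.27 in Z18trunc, so that ratio overlapped between the groups. By gene, 15 of 49 large and 4 of 32 small subunit genes tested were higher in Z18trunc, with median log2 differences of -0.07 and -0.10. The difference between the subunits was not tested. Without the 5 most abundant genes the change was -5.28%.

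**Figure D1:**
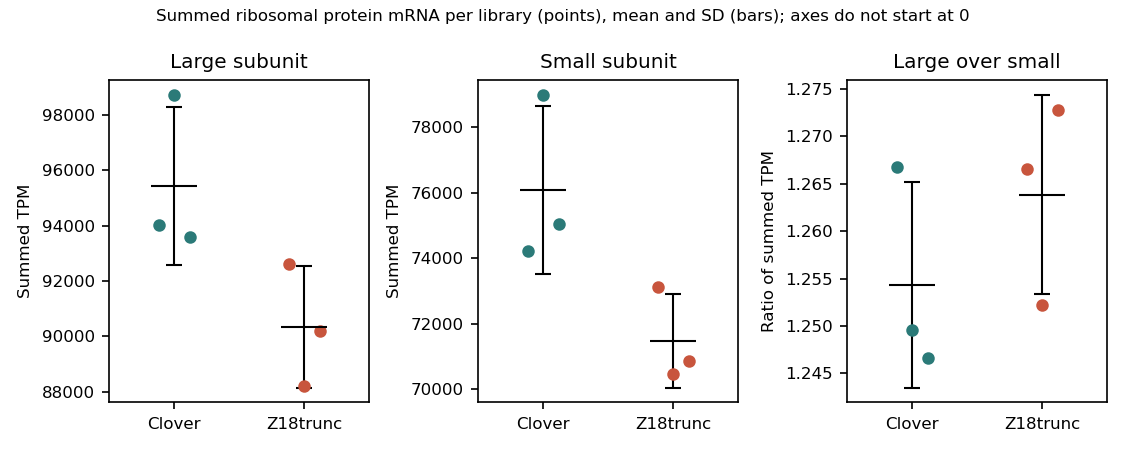
Summed TPM of large subunit genes, of small subunit genes and the ratio of both sums, with 1 point per library and bars for the mean and SD of 3 libraries; the vertical axes do not start at 0. Both sums are lower in each Z18trunc library than in each Clover library, while the ratios overlap.

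The level of single RP genes spanned a ratio of 291 between the highest and the lowest of the 81 that had a mean of at least 1 TPM and were tested. The median was 1983 TPM, with quartiles of 1058 and 2817 TPM, and 62 genes reached 1000 TPM. RP genes filled 50 of the 100 and 65 of the 200 most abundant symbols. The median coefficient of variation between libraries was 3.82% in Clover and 3.76% in Z18trunc. The 3 genes left out of the test were RPL39L, listed at 0 in every library, RPL10L at 0.0736 to 0.175 TPM and RPL3L at 0.285 to 1.19 TPM. These are copies known from testis (RPL39L, RPL10L) and from muscle (RPL3L).

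RPS2, a small subunit protein, was the most abundant, at 6607, 6833 and 6573 TPM in Clover and 6096, 6125 and 6020 TPM in Z18trunc. RPL7A, of the large subunit, followed at 6139, 6263 and 6025 TPM and at 5759, 5705 and 5858 TPM. In each group every RPS2 value lay above every RPL7A value. RPL8 and RPL13A were also among the 5 highest, with ranges over the 6 libraries of 4629 to 5488 and 4492 to 5325 TPM that overlapped each other. At the low end stood RPL22L1 (17.8 to 23.9 TPM), RPL7L1 (60.1 to 85.7 TPM), RPL26L1 (111 to 129 TPM), RPL14 (162 to 183 TPM) and RPL22 (308 to 344 TPM), none of which overlapped with its neighbour in this order. Of these, RPL14 and RPL22 are core proteins of the large subunit and the other 3 are copies or relatives of RP genes. TPM is a level per length, so such ranks also depend on the annotated transcripts. In the MANE set these 5 are 1902, 4499, 722, 7136 and 2061 bases long in the same order, against an RP median of 785. How far length sets their place was not tested.

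**Figure D2:**
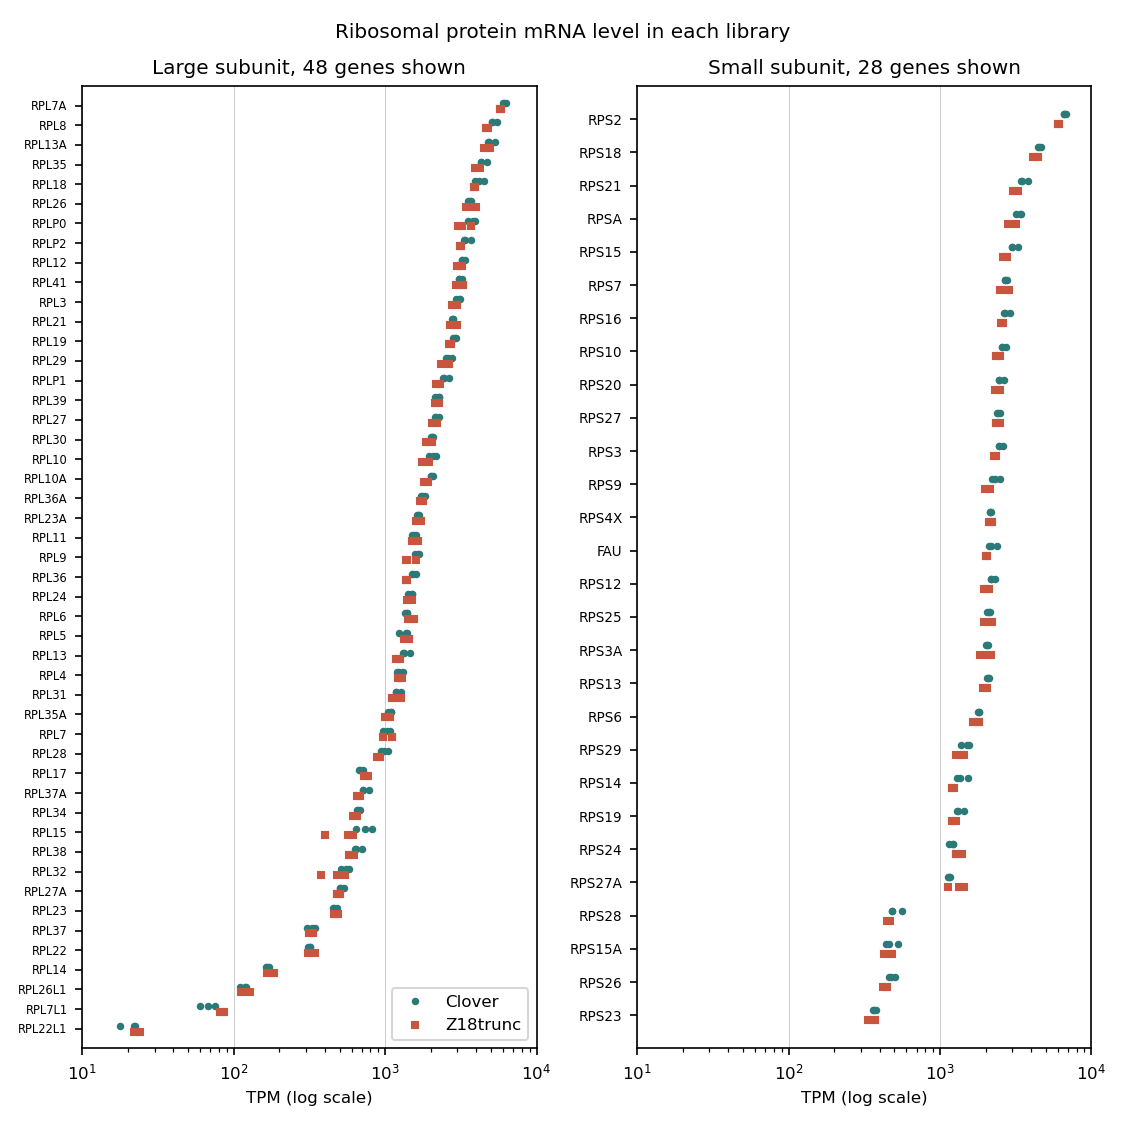
TPM on a log scale for 48 large and 28 small subunit genes, sorted by mean level, with 1 point per library (circles Clover, squares Z18trunc). Most genes lie above 1000 TPM, the copies RPL22L1, RPL7L1 and RPL26L1 lie lowest, and within a gene the libraries differ far less than the genes do.

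No RP gene passed the test. limma on log2(TPM + 1) called 0 of 81 at an adjusted p under 0.05, against 0.015% of 13300 genes tested, and the smallest adjusted p of an RP gene was 0.098. At an unadjusted p under 0.05, 5 were lower (all genes 2.9%) and 1 was higher (all genes 25.6%). Here 5 of 81 is 6.17% and 1 of 81 is 1.23%. Groups did not overlap with Z18trunc lower for 33 genes, or 40.7% (all genes 6.73%), and with Z18trunc higher for 4 genes, or 4.94% (all genes 30.1%). The remaining 44 overlapped. The counts lower and higher without overlap were 11 and 6 after quantile normalization (all genes 16.2% and 16.8%). They were 33 and 3 with TPM rescaled to all symbols other than RP genes (8.32% and 28.4%), and 44 and 2 on FPKM (13.4% and 24.1%). On TPM, of 304 other genes with short, abundant mRNAs (defined below), 96 were lower and 11 higher without overlap.

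On the log2 scale 62 RP genes were lower in Z18trunc and 19 higher, with a median difference of -0.07, while 68% of all genes tested were higher, with a median of 0.11. The median SE of the RP genes, 0.07, was as large as their median difference, and 79 of 81 changed by less than 15%. Without Clover library 2 the medians were -0.05 for RP genes and 0.07 for all genes. Without Z18trunc library 1 they were -0.09 and 0.11. After quantile normalization, which moved the median of all genes to -0.01, the RP median was -0.01 and 35 of 81 genes were higher. Quantile normalization forces the top of each library to the same values, where the RP genes lie. With TPM rescaled so that all symbols other than RP genes had the same total, the RP median was -0.09 and that of all genes 0.09. On FPKM, which is not scaled to a common total, the RP median was -0.14 with 7 of 81 genes higher, and that of all genes 0.04. TPM, FPKM and rescaled TPM differ only by a single factor per library, which shifts all genes nearly alike. The gap between RP genes and the median gene is therefore the same result in each of them. Quantile normalization can change this gap, and after it the gap was no longer there.

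**Figure D3:**
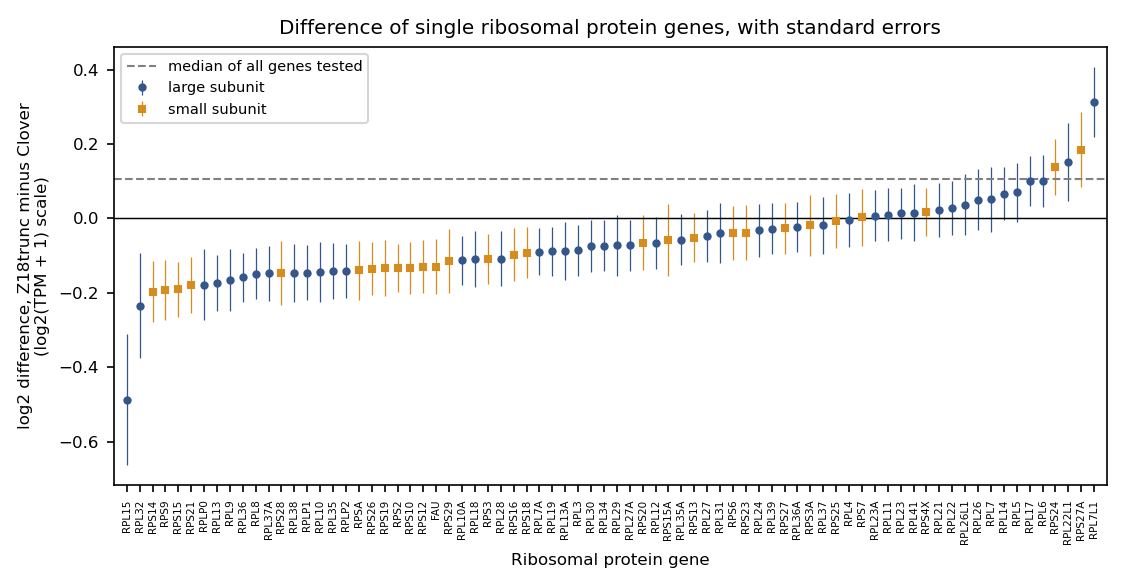
Log2 difference (Z18trunc minus Clover, log2(TPM + 1) scale) of 76 of the 81 RP genes tested, sorted, with standard errors from limma; the solid line is 0 and the dashed line the median of all genes tested, 0.11. Most RP genes lie between 0 and -0.2, RPL15 stands lowest at -0.49 and RPL7L1 highest at 0.31.

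RPL7L1 (hg38, chr6:42879616-42889934, plus strand), a relative of RPL7 found with early large subunit particles in the nucleolus, had the smallest p. It was 67.9, 60.1 and 74.7 TPM in Clover and 84.4, 81.4 and 85.7 TPM in Z18trunc. Every Z18trunc library lay above every Clover library. The log2 difference was 0.31 (SE 0.09, limma adjusted p = 0.098). RPL7L1 has no tract at its start and is longer than most RP mRNAs, at 4499 bases in the MANE transcript set.

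The ratio of RPL7L1 to RPL7 was 0.0628, 0.0625 and 0.0723 in Clover and 0.0761, 0.0835 and 0.0776 in Z18trunc, with no overlap. RPL7 itself was 961 to 1080 TPM in Clover and 975 to 1109 TPM in Z18trunc and overlapped. The copies RPL22L1 and RPL26L1 behaved otherwise beside their partners RPL22 and RPL26. RPL22L1 over RPL22 was 0.0654 ± 0.00714 and 0.0714 ± 0.00355 (SD, n = 3 each), and RPL26L1 over RPL26 was 0.0321 ± 0.000604 and 0.0319 ± 0.00196 (SD, n = 3 each). Both ratios overlapped between groups. Of the partners of the 3 copies that were not tested, RPL39 had a log2 difference of -0.03, RPL3 of -0.09 and RPL10, which joins late in the cytoplasm, of -0.14. RPL3 and RPL39 turned to 0.02 and 0.04 after quantile normalization.

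RPL15 (hg38, chr3:23916545-23924631, plus strand), a large subunit protein, was the lowest by log2 difference. It was 734, 826 and 646 TPM in Clover and 404, 618 and 568 TPM in Z18trunc. The groups did not overlap, and the first Z18trunc library stood below the other two. The log2 difference was -0.49 (SE 0.18, limma adjusted p = 0.133), and -0.30 without Z18trunc library 1. The FPKM of RPL15 was 2.56 to 2.97 times what its read coverage would give at the common ratio of the library, and on coverage, scaled to the same total in each library, the log2 difference was -0.40. Its 3 RefSeq starts lack the tract.

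The other 4 genes that were lower at an unadjusted p under 0.05 were close in size. RPS15 was 3011, 3279 and 2970 TPM against 2715, 2787 and 2608 TPM (log2 difference -0.19, SE 0.07, limma adjusted p = 0.154). RPS9, a small subunit protein, was 2198, 2508 and 2307 TPM against 2138, 1990 and 2003 TPM (-0.19, SE 0.08, limma adjusted p = 0.172). RPL36 and RPS21 had log2 differences of -0.16 and -0.18, with limma adjusted p of 0.172 and 0.175. In all 4 genes the lowest Clover library lay above the highest Z18trunc library. Their Clover values were highest in the second library, which also had the highest summed RP level.

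RPS24, needed for maturation of the small subunit rRNA, RPL17, which lines the exit tunnel, and RPL6 were higher without overlap. RPS24 was 1227, 1141 and 1220 TPM in Clover and 1284, 1272 and 1393 TPM in Z18trunc (log2 difference 0.14, SE 0.07, limma adjusted p = 0.271). RPL17 was 716, 676 and 683 TPM against 728, 733 and 765 TPM, a log2 difference of 0.10. RPL6, a large subunit protein, had a log2 difference of 0.10 and was outside the naming rule, chosen after its values were seen.

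The stalk proteins RPLP0, RPLP1 and RPLP2 form the arm that recruits elongation factors. RPLP0 was 3813, 3900 and 3546 TPM in Clover and 3703, 3245 and 3030 TPM in Z18trunc, so that the groups overlapped. RPLP1 was 2412, 2659 and 2436 TPM against 2319, 2282 and 2180 TPM, and RPLP2 was 3303, 3679 and 3380 TPM against 3104, 3155 and 3126 TPM, both without overlap. The log2 differences were -0.18, -0.15 and -0.14, with limma adjusted p of 0.269, 0.246 and 0.248, and that of RPLP0 was -0.11 without Z18trunc library 3. Summed, the stalk genes changed by -10.2%, from 9710 ± 465 to 8715 ± 396 TPM (SD, n = 3 each).

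FAU and RPS27A encode fusions, of a ubiquitin-like protein with RPS30 and of ubiquitin with RPS27A. FAU was 2111, 2384 and 2184 TPM in Clover and 2035, 2012 and 2053 TPM in Z18trunc (log2 difference -0.13, limma adjusted p = 0.298, and -0.08 without Clover library 2). RPS27A was 1139, 1121 and 1158 TPM against 1129, 1345 and 1431 TPM, with Z18trunc libraries 2 and 3 above all others. Its log2 difference was 0.18 (SE 0.10, limma adjusted p = 0.274) on TPM and 0.12 on scaled coverage, and on TPM it was 0.28 without Z18trunc library 1 and 0.11 without Z18trunc library 3. The ratio of its FPKM to coverage, relative to the library, was 1.37 in the Clover libraries and Z18trunc library 1 and 1.47 in the other two. RPSA, the laminin receptor homolog of the small subunit, was 3187, 3424 and 3367 TPM against 3178, 3095 and 2795 TPM (log2 difference -0.14, limma adjusted p = 0.294, and -0.08 without Z18trunc library 3) with no overlap.

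RPL5 and RPL11 carry the 5S rRNA into the large subunit. RPL5 was 1394, 1241 and 1381 TPM in Clover and 1447, 1336 and 1432 TPM in Z18trunc, and RPL11 was 1551, 1601 and 1517 TPM against 1547, 1509 and 1646 TPM. Both overlapped, with log2 differences of 0.07 and 0.01 and limma adjusted p of 0.597 and 0.944. That of RPL5 was 0.02 without Clover library 2 and 0.11 without Z18trunc library 2. The difference for RPL11 changed sign with the scaling, at -0.01 when TPM was rescaled to the other symbols and -0.06 on FPKM. Among 22 RP genes known from Diamond-Blackfan anemia, an inherited red cell disorder, 17 were lower and 5 higher, with 0 called and 1, RPL15, lower at an unadjusted p under 0.05. The share higher was 22.7%, beside 23.5% of all RP genes tested.

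The RP genes were then set beside other genes of like size, since their mRNAs are short, with a median MANE length of 785 bases against 3239 for all genes tested. Among other genes the median log2 difference was higher in longer genes, from -0.07 for up to 1000 bases (688 genes) and -0.01 for 1000 to 2000 bases to 0.08 for 2000 to 4000 bases and 0.23 above 4000 bases (4402 genes). It was lower in more abundant genes, from 0.18 at 1 to 10 TPM to -0.06 for the 85 other genes of at least 1000 TPM. The 304 other genes of up to 1000 bases and at least 100 TPM had a median of -0.08, and 17.4% of them were higher, against -0.07 and 23.5% for RP genes. As deposited, the 2 medians were thus close. After quantile normalization they were -0.07 for the short, abundant genes (65 of 304 higher) and -0.01 for RP genes (35 of 81 higher). As deposited, 96 of the 304 were lower and 11 higher without overlap, beside 33 and 4 of the 81 RP genes (all genes 6.73% and 30.1%). Of the 85 other genes of at least 1000 TPM, 26 were lower and 7 higher without overlap. At an unadjusted limma p under 0.05, 20 of the 304 were lower and 6 higher, beside 5 and 1 of the RP genes (all genes 2.9% and 25.6%).

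**Figure D4:**
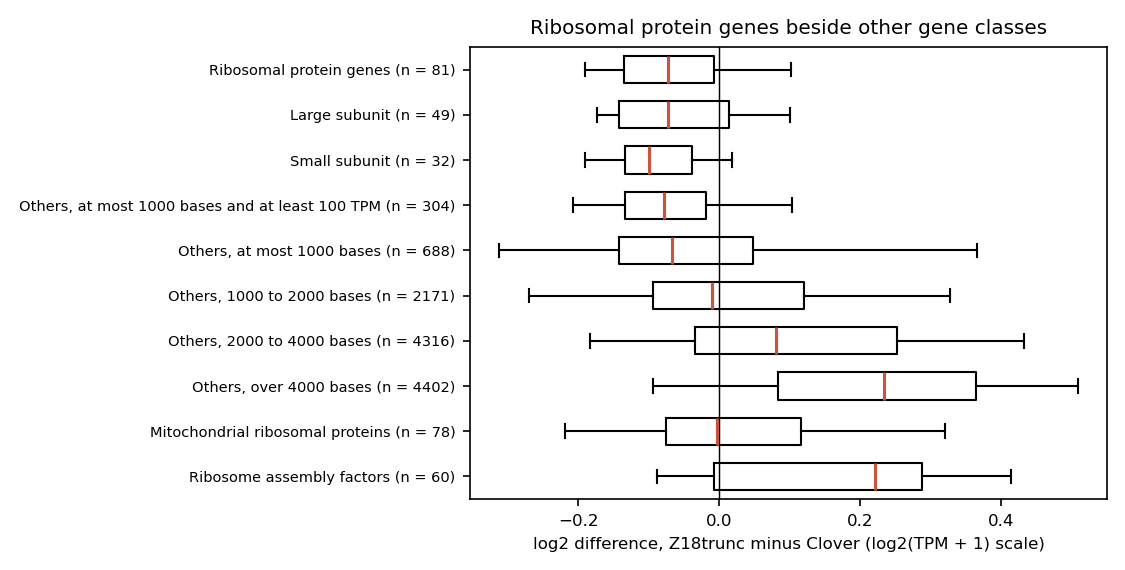
Log2 difference (Z18trunc minus Clover) by gene class, as box plots with the median, the quartiles and whiskers at the 5th and 95th percentile of genes; "others" are genes that are not RP genes, grouped by MANE transcript length. On this scale the medians of RP genes and of other short, abundant genes are -0.07 and -0.08, and the longest genes lie highest.

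Among RP genes themselves the difference hardly went with length (Spearman rho 0.04 across 81 genes) and was lower at higher levels (rho -0.29). Genes share the libraries, so these are descriptions across genes. The 26 RP genes of at least 2500 TPM had a median of -0.10, the 36 of 1000 to 2500 TPM -0.04 and the 19 below 1000 TPM -0.06. The 48 genes with the tract had a median of -0.08 (39 lower), the 18 tested genes without it -0.09 (12 lower) and the 15 with no entry -0.06. Genes without it are those with no such run at an annotated RefSeq start base. Some of them have a run of C and T a few bases away, so the split depends on the annotation. The 28 RP genes that hold snoRNA genes (60 in all, guides for rRNA modification) had a median of -0.07, as did the 53 others.

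RP genes have many processed copies in the genome. GENCODE 44 names 1603 pseudogenes for 79 of the 84 genes, with a median of 12 and a maximum of 133 for RPL21, and reads can be divided between a gene and such copies. The 26 tested genes with at least 20 pseudogenes had a median log2 difference of -0.06 and the 55 with fewer -0.09. The 32 pseudogene symbols listed in the files summed to 849 ± 26.4 TPM in Clover and 783 ± 15.5 TPM in Z18trunc (SD, n = 3 each). That sum was lower in every Z18trunc library, as was the RP sum.

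The genes around the RP genes were described by count. Of 20 other genes with known TOP mRNAs, 12 were higher and 8 lower, a median of 0.07, 0 called and 5 higher at an unadjusted p under 0.05 (all genes 68% higher, and 25.6% at that p). The 2 with the smallest p were EIF4B, a translation initiation factor, at 0.28 (SE 0.08, limma adjusted p = 0.088), and NPM1, a nucleolar chaperone, at 0.34 (SE 0.10, limma adjusted p = 0.096). Of 20 regulators of TOP mRNA translation, 16 were higher, 0 called and 7 higher at an unadjusted p under 0.05 (all genes 25.6%). Their median was 0.21, or 0.08 after quantile normalization (14 higher). TIA1, an RNA-binding repressor of TOP mRNAs under stress, went from 11.5, 10.8 and 11.4 to 16.3, 15.4 and 16.3 TPM, and EIF4E, the cap-binding protein, had a log2 difference of 0.28 (limma adjusted p = 0.077 and 0.084).

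Of 60 ribosome assembly factors, 42 were higher, 0 called and 25 higher at an unadjusted p under 0.05 (all genes 25.6%). Their median was 0.22, or 0.10 after quantile normalization (40 higher). The 70% higher was near the 68% of all genes, but the medians were not. For all genes the median was 0.11, or -0.01 after quantile normalization (6507 of 13300 higher). Genes of like length and level were not set beside this list. EFL1 and SBDS together remove EIF6 from new large subunits. EFL1 was 6.27, 6.96 and 6.35 TPM in Clover and 9.03, 9.5 and 9.04 TPM in Z18trunc, and SBDS was 99.8, 91.7 and 93.9 TPM against 119, 126 and 132 TPM (limma adjusted p = 0.077 for each). Of 78 mitochondrial RP genes 38 were higher and 0 called. At an unadjusted p under 0.05, 10 were higher (all genes 25.6%) and 3 lower (all genes 2.9%). The sum of the mitochondrial RP genes overlapped between groups at 9018 ± 205 and 8825 ± 37.2 TPM (SD, n = 3 each). Of 9 symbols outside the symbol rule, namely RP genes such as RACK1, pseudogenes and fusions, 6 were lower and 3 higher. Some of the fusions were at 0 TPM in some libraries, so the count does not describe RP genes alone.

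RNA from inside RP introns gave a second readout from the same 6 libraries. Uniquely mapped fragments were counted at transposable element (TE) loci within a gene, on its strand and away from exons. RP introns are short, and 46 RP genes had such fragments, 32 of them at least 30. edgeR, and DESeq2 as an alternative, called 0 of these 32, against 0.145% of 7592 genes by edgeR. At an unadjusted p under 0.05, 1 was lower (all genes 0.277%) and 0 were higher (all genes 13.8%). The 1 was RPL24 (hg38, chr3:101681091-101686718, minus strand), with 10, 14 and 7 fragments in Clover and 2, 2 and 6 in Z18trunc, a log2 difference of -1.62 (edgeR adjusted p = 0.242). It was chosen after its values were seen, and its TPM overlapped between groups at a log2 difference of -0.03.

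Between groups, the summed intronic RNA of RP genes did not go up with the sum over all genes. Intronic fragments of other short, abundant genes were not compared as a class. Whether the pattern is particular to RP genes was therefore not tested. RP introns held 43.5, 41.6 and 38.2 counts per 1000000 aligned fragments (CPM) in Clover and 37.7, 39.9 and 44.8 CPM in Z18trunc, which overlapped. All genes held 10410, 9858 and 8991 CPM against 11067, 12168 and 13090 CPM, which did not. Within each group both sums ran in the same order over the libraries. RP genes thus gave 4.18, 4.22 and 4.24 of each 1000 intronic TE fragments in Clover and 3.4, 3.28 and 3.42 in Z18trunc. The groups did not overlap. Each value rests on only 728 to 978 RP fragments, so the spread of 3 libraries is a poor measure of this gap. Mean RP CPM was 41.1 in Clover and 40.8 in Z18trunc, so the lower part comes with the higher sum of all genes. The fitted log2 differences were above 0 for 19 of 32 RP genes, or 59.4% (all genes 78.5%), with a median of 0.05 against 0.31. With TMM scaling, which sets the typical gene near 0, the RP median turned to -0.27. Leaving out 1 library moved it between -0.04 (without Clover library 3) and 0.10 (without Z18trunc library 1), and it was -0.03 without Z18trunc library 2 and near 0, at 0.0038, without Clover library 2 and 0.014 without Z18trunc library 3.

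RPS9, the richest in such fragments, had 171, 94 and 140 in Clover and 134, 100 and 142 in Z18trunc and gave 15.5% of the RP total. Without RPS9 the RP sum was 34.5 ± 3.08 and 34.7 ± 3.18 CPM (SD, n = 3 each). RPS14, a small subunit protein chosen here after its values were seen, had 47, 45 and 41 fragments against 28, 29 and 35, a log2 difference of -0.54 (edgeR adjusted p = 0.403), beside -0.20 for its TPM.

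**Figure D5:**
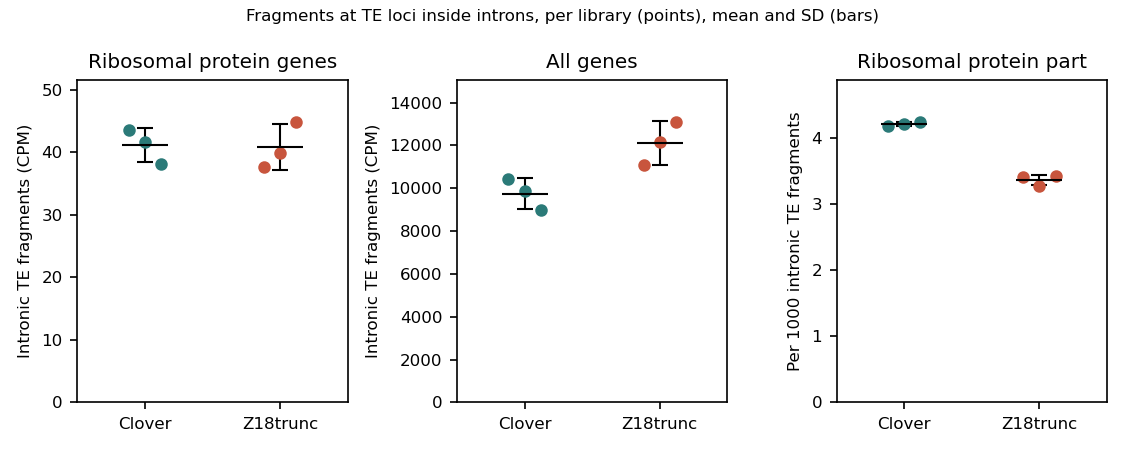
Uniquely mapped fragments at TE loci inside introns of RP genes and of all genes, in CPM, and the RP part per 1000 such fragments, with 1 point per library and bars for the mean and SD of 3 libraries. The RP values overlap between groups near 41 CPM, the values of all genes are higher in each Z18trunc library, and the RP part is lower in each.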

How the data were processed

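SW480 libraries (3 Clover, 3 Z18trunc) were grouped by their titles. Reads were trimmed by the authors with cutadapt 4.6 and mapped to hg38, per the submitters' processing notes, and quantified with SQuIRE. The deposited gene tables give TPM, FPKM and coverage (signal) per gene, and the TE tables give whole-number counts of uniquely mapped fragments, estimated counts that include shared fragments, and the aligned fragments of each library. The authors' gene tables hold no gene counts, so gene depth is not known beyond the aligned fragments.

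TPM was summed by symbol and genes with a mean of at least 1 TPM entered limma 3.58.1 (R 4.3.3) on the log2(TPM + 1) scale, with Benjamini-Hochberg adjustment over 13300 genes. Fold differences on this scale understate those of low genes. Intronic TE counts entered edgeR 4.0.16 (quasi-likelihood) at 30 or more counts over 6 libraries, with aligned fragments as library size, using bedtools 2.31.1 and GENCODE 44 exons. Both fits were tested on simulated data. DESeq2 1.42.0 and other filters, scalings, pseudocounts, a replicate block and leaving out each library were alternatives; coverage and FPKM as inputs to limma were added after seeing the data. Lines were made in biological triplicate per the study's methods.

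The members and lists were chosen with earlier results of these data known. No p is given for sums or medians over them. Named genes were the 5 highest and 5 lowest by level, any called, the 5 lower and 5 higher with the smallest p, the stalk, fusion, RPSA and 5S genes, the copies with their partners, members under the filter, ZC3H18, and for the lists of other TOP genes, regulators and assembly factors the called genes and the 2 with the smallest p. In 35 of 83 members, FPKM divided by coverage was over 1.05 times the common ratio of the library, and the sources used here do not state why. Some members and list genes entered every fit, sum and count but are not reported here by name or drawn singly.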

Additional observations from a re-analysis of the deposited data

How the results depend on the processing

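No RP gene was called by limma or edgeR under any alternative run, while limma's calls over all genes went from 2 to 60 with an intensity trend, 474 at a mean of at least 5 TPM and 593 with a pseudocount of 10. Counts of RP genes at an unadjusted p under 0.05 were unstable, and the cause was not tested. The shares of all genes at that p in the alternatives are not given here. Such counts are therefore not a result about RP genes in particular. The 5 that were lower became 29 on FPKM, 32 with an intensity trend, 10 with no filter, 3 with a pseudocount of 0.1, 24 with a pseudocount of 10 and 1 after quantile normalization. Leaving out each library gave 0 (without the second Clover library) to 3. The 1 that was higher became 5 with an intensity trend, 2 with a pseudocount of 10 and 1 to 2 with each library left out. FPKM made the log2 ratio of the RP sums -0.15, not -0.08, and left 2 genes higher without overlap in place of 4, and quantile normalization left 11 lower without overlap in place of 33.

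For intronic fragments, the 1 RP gene lower at an unadjusted p under 0.05 became 5 with TMM scaling and 3 with DESeq2, whose RP median was -0.28. Both scalings set the typical gene near 0, and the shares of all genes under them are not given here. These 2 counts are therefore not a result about RP genes in particular. The count of such RP genes became 0 at 100 or more counts and without Clover library 2, Z18trunc library 1 or Z18trunc library 2.

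Same-numbered libraries did not deviate together across genes, with correlations of -0.04, 0.02 and -0.04. Such correlations cannot tell whether the lines were made or handled in pairs. With the replicate block, 1 RP gene was lower at an unadjusted p under 0.05 and 0 were called.

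Of 330 alternative values for 30 named RP genes, which include those of the replicate block that could not change, 8 changed sign. These were RPL11 when rescaled to other symbols (-0.0069), RPL13A, RPL39 and RPL3 after quantile normalization (0.015, 0.039 and 0.019), and, with 1 library left out, RPL11 (-0.026 to 0.037), RPL26L1 (-0.018 to 0.082) and RPL22 (-0.017 to 0.064). FPKM, not among the 330, turned 6 named genes negative, namely RPL11 (-0.057), RPL22 (-0.039), RPL26L1 (-0.029), RPL26 (-0.017), RPL7 (-0.016) and RPL14 (-0.00083), and left 7 RP genes higher in place of 19.

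Depth and 3 libraries a group limit what can be seen. Intronic counts of single RP genes were mostly low, and a p over the threshold does not show that levels were equal.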
